A study of Mus musculus with 2 samples.

Results

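Cell size was approached through forward scatter, the light a cell deflects at low angles in the sorter, whose area signal is recorded as FSC-A. Within each plate and each sort gate the cells with at least 1000 detected genes were ranked by FSC-A, and the top tertile (large cells) was set against the bottom tertile (small cells), so the members were chosen by their measured FSC-A. This gave 255 large and 255 small cells, 510 of the 768 cells in all, in 8 pairs of 1 plate and 1 gate each. A further 257 cells formed the middle tertile, and 1 cell with 868 genes was left out. Counts were summed over the 31 or 32 cells of a side, so a pair is 1 sum of large and 1 sum of small cells.

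The cells were NIH3T3-Rev-VNP1-H2B-iRFP fibroblasts, a mouse embryonic fibroblast line with Venus reporting Nr1d1 and with iRFP, a near-infrared fluorescent protein, fused to histone H2B. They were grown to 95% confluency without synchronization, no cell received a treatment, and whether the line is 1 clone is not given in the sources used here. Single cells were sorted into 2 plates for FLASH-seq, which reads transcripts of single cells along their whole length, with 4 Venus gates of 96 cells on each plate. Plate 1 held only the High RFP sort and plate 2 only the Low RFP sort, so plate and iRFP sort cannot be told apart, and each gate filled its own 6 well columns.

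Forward scatter depends on cell volume, and also on refractive index and shape. Side scatter, collected at right angles, depends more on internal structure such as granules and membranes. Proliferating cells gain mass from G1 to mitosis, duplicate their chromatin in S phase and build a microtubule spindle before they divide. H2B fusions are carried on chromatin, so their fluorescence is widely used to follow DNA.

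The sums of 1 side held 24011994 to 28820073 counts, and single cells between 2100 and 1618022. The 10 matched fibroblast markers, of which 9 were tested, summed to a median of 22967 CPM (counts scaled to a total of 1000000 per sum) in small and 23954 in large cells. Of 17 matched markers of other cell types, 5 passed the expression filter. Those 5 were Krt14, Lyz2, Cdh1, Des and Pecam1, and all matched markers had at least 1 count in some cell, with Adipoq at 0 in every large and small sum. The whole list summed to 31.1 to 63.5 CPM in small and 46.7 to 75.8 in large cells. Within pairs it was higher in large cells in 8 of 8, with ratios of 1.04 to 1.91. Its most abundant member, the keratin gene Krt14, had medians of 27.4 and 37.8 CPM (log2 0.66 ± 0.18 SE, higher in 7 of 8 pairs, adjusted p = 0.275 by edgeR). Cdh1, the other epithelial marker tested, went the other way, with medians of 4.63 CPM in small and 4.02 CPM in large sums, scaled by the total alone. Krt14 had a count in 554 cells and Lyz2 in 405, while the epithelial marker Epcam had 2 counts over all cells. Whether cells of another type were present, and their part in the results, was not tested.

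Forward scatter itself, which chose the cells, is described without a test. The median FSC-A of the small cells, in units of 1000000, lay between 37.3 and 47.6 over the 8 pairs, with a median of 41.4. Large cells lay between 56.8 and 73.2, with a median of 61.8. The ratio within a pair ran from 1.42 to 1.71. At the cut, the lowest large cell exceeded the highest middle cell by a ratio of 1.00001 to 1.00853, so the tertiles are ranges of a continuous measure and not classes of cell. The height signal FSC-H followed with a ratio of 1.74, and the imaging channel LightLoss (Imaging)-A with 1.45. The pulse width FSC-W was lower in large cells in 7 of 8 pairs (ratio 0.915). The area of the cell's picture in the forward scatter image, Size (FSC), hardly followed, with a ratio of 1.01 and 5 of 8 pairs higher. In the side scatter image the area, Size (SSC (Imaging)), was higher in 8 of 8 pairs, with a ratio of 1.10 (1.03 to 1.15). In the light loss image, Size (LightLoss (Imaging)) was higher in 6 of 8 pairs, with a ratio of 1.04. Across the cells of 1 pair the median Spearman correlation with FSC-A was 0.868 for LightLoss (Imaging)-A and 0.050 for Size (FSC), over 8 pairs of 95 or 96 cells that share plate and gate.

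Side scatter rose with forward scatter in every pair. Median SSC (Violet)-A was 19.0 to 23.7 in small cells, again in units of 1000000, with a median of 21.7, and 24.0 to 31.2 in large cells, with a median of 26.9. These ranges did not overlap. Mean ratio within pairs was 1.25 (1.15 to 1.42), higher in 8 of 8 pairs, with p = 0.00781 in a two-sided exact sign-flip permutation test, the smallest value 8 pairs can give, and 0.0215 after Benjamini-Hochberg adjustment over the 11 measures tested. Fluorescence in the UV5 detector, which is excited by ultraviolet light as the viability dye DAPI is, rose by the same test in 8 of 8 pairs, with a mean ratio of 1.26 (1.15 to 1.45) and an adjusted p = 0.0215. That call was lost with sixths (adjusted p = 0.0516) and with means in place of medians, where the log2 difference was 0.187 in place of 0.336 (adjusted p = 0.0859, exact sign-flip permutation test). In units of 1000, small cells gave 295 to 383 there and large cells 397 to 487, again without overlap. All pairs came from the same 2 plates of 1 line, so these p-values measure the spread between plate and gate sets, not between cultures.

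H2B-iRFP fluorescence did not pass the test. The signal of detector R4 was taken as iRFP because it separates the plates; the sorting record does not name it so. Its pair medians, in units of 1000, were 131 to 399 in small cells, with a median of 223, and 148 to 402 in large cells, with a median of 257, and the ranges overlapped almost entirely, with the plates well apart. Within pairs the mean ratio was 1.10, higher in 6 of 8, with p = 0.109 and adjusted p = 0.201 by the exact sign-flip test. On plate 2 all 4 gates were higher, with ratios of 1.04 to 1.23. On plate 1 the ratio was 0.833 in the dimmest Venus gate, 0.991 in the next, and 1.27 and 1.32 in the brighter pair of gates. Venus fluorescence (detector ImgB1, likewise unnamed in the record) rose slightly although cells were ranked inside Venus gates, with a mean ratio of 1.10 (1.02 to 1.31), 8 of 8 pairs higher and an adjusted p = 0.0215. That call was lost with cuts at the median, sixths, well columns or means in place of medians (adjusted p = 0.0516 to 0.115).

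The transcripts of both reporters lay on the other side of 1. The YFP feature, which stands for Venus, had a median of 194 CPM in small and 196 CPM in large sums. Its log2 fold change, large over small throughout, was -0.11 ± 0.05 (SE), lower in 6 of 8 pairs, with an adjusted p = 0.470 by edgeR. The iRFP transcript had medians of 31.0 CPM in small and 25.997 CPM in large sums, a log2 fold change of -0.22 ± 0.09, lower in 7 of 8 pairs, and an adjusted p = 0.462. Neither reporter transcript passed the test, and Nr1d1 itself, the circadian repressor that Venus reports, stood at log2 -0.07 ± 0.06 (adjusted p = 0.757).

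**Figure D1:**
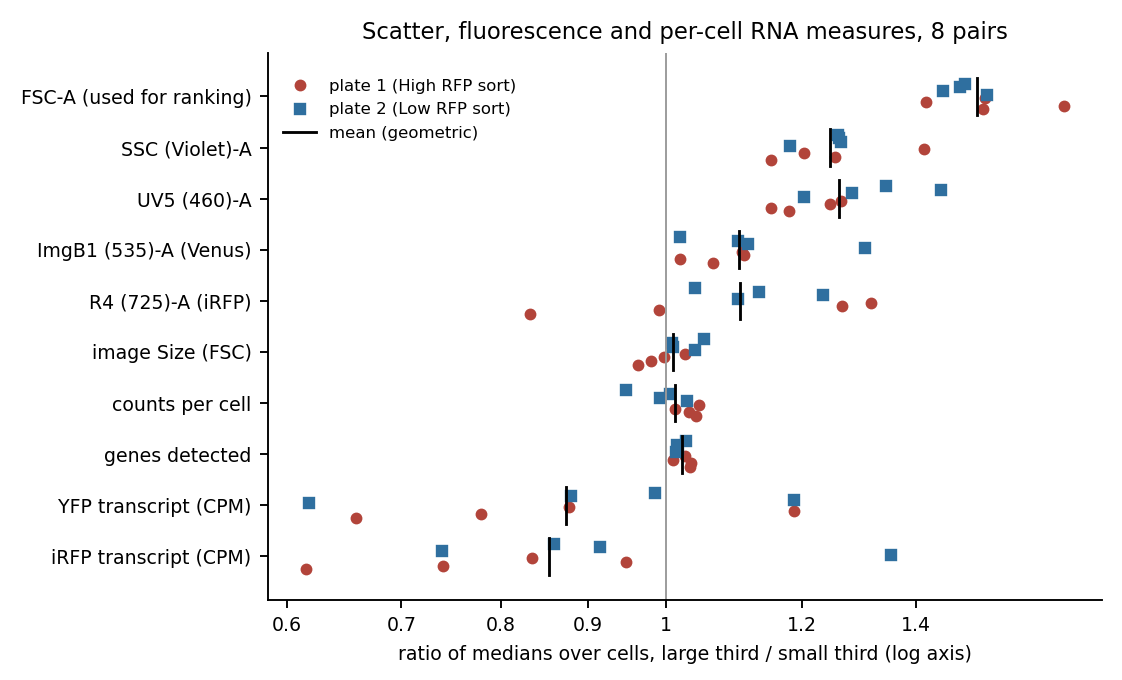
Ratio of the large tertile's median to the small tertile's median (log axis) for scatter, fluorescence and per-cell RNA measures. Each point is 1 of 8 plate and gate pairs, red circles for plate 1 and blue squares for plate 2, and the black bar is their geometric mean; FSC-A chose the cells. Side scatter and the UV5 signal lie above 1 in all 8 pairs, counts per cell lie around 1, and the 2 reporter transcripts lie mostly below it.

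Large cells showed slightly more genes. Small cells had pair medians of 10746 to 11172 genes with at least 1 count, and large cells 10911 to 11472. The ranges overlapped, but within pairs the large cells had 106.5 to 363.5 more genes, 234 on average, a ratio of 1.02 in 8 of 8 pairs (adjusted p = 0.0215, exact sign-flip test). Depth differed little. Counts per cell had a mean ratio of 1.01, higher in 6 of 8 pairs (adjusted p = 0.391). With every cell thinned to 690000 counts, which left out 72 cells, the ratio of genes was again 1.02 in 8 of 8 pairs, and with at least 5 counts per gene it was 1.01. Per the labels, cDNA was brought to a common concentration before tagmentation, so totals carry no measure of RNA per cell and every gene value below is relative. The mitochondrial share of counts had medians of 8.63% in small and 8.20% in large cells, and its mean difference was -0.12 percentage points (adjusted p = 0.593, exact sign-flip test).

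Among 13884 genes tested, edgeR's quasi-likelihood test with the pair as block called 1 gene, Tubb2a, which is 0.0072% of those tested. At an unadjusted p below 0.05 stood 1395 genes (10%), of which 741 (5.34%) were higher and 654 (4.71%) lower in large cells. DESeq2 on the same sums and block called 153 genes (1.1%), 111 higher (0.799%) and 42 lower (0.303%), while limma on mean CPM called 0, with 1379 genes at an unadjusted p below 0.05. The sign was the same in all 8 pairs for 251 genes (1.81%), with 124 higher (0.893%) and 127 lower (0.915%). Changes were small: among genes whose mean log2 CPM reached 3 and with an unadjusted p below 0.05, the median log2 fold change was 0.19 for the 553 higher and -0.18 for the 482 lower genes.

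**Figure D2:**
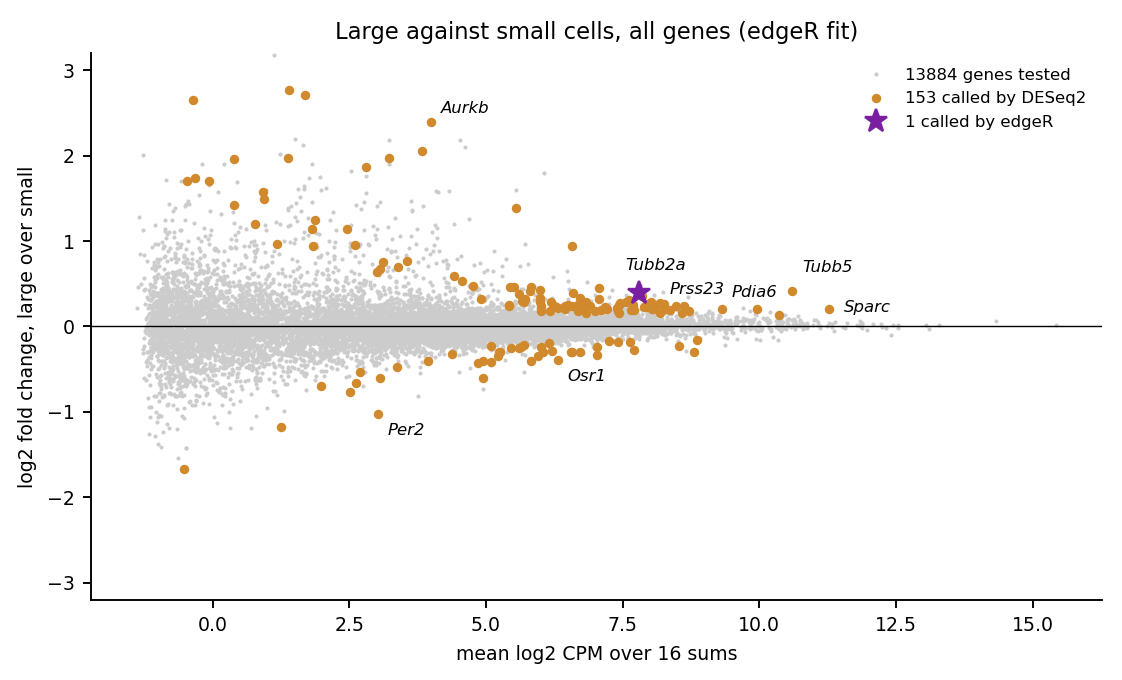
Log2 fold change of large over small cells against mean log2 CPM over the 16 sums, from the edgeR fit. Grey points are all 13884 genes tested, orange points the 153 called by DESeq2 and the purple star Tubb2a, the 1 gene called by edgeR. Above a mean log2 CPM of 5 almost all values lie close to 0, and called genes lie on both sides.

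Tubb2a (ENSMUSG00000058672.8) encodes a beta-tubulin, a building block of microtubules. Its CPM ran from 130 to 262 in small sums, with a median of 194, and from 172 to 352 in large sums, with a median of 252. Middle sums had a median of 208. The ranges overlapped across pairs, but large exceeded small in 8 of 8 pairs. Its log2 fold change was 0.39 ± 0.04 (SE), with an adjusted p = 0.0139 by edgeR and 4.85e-13 by DESeq2. Either plate alone gave a value of the same sign, 0.43 on plate 1 and 0.35 on plate 2, neither called. It was not called when the dimmest, second or brightest gate of plate 1 or the second or the third gate of plate 2 was left out (adjusted p = 0.0641 to 0.0867 by edgeR), and with the highest 5% of FSC-A removed it fell short at log2 0.31 (adjusted p = 0.270). Ranked by Size (FSC) instead, the value was 0.12 (adjusted p = 0.697).

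The 250 bases before the start of Tubb2a, as RefSeq gives them on GRCm38.p6 (chr13:34078009-34078258, minus strand), are shown because this was the 1 gene called by the principal test:
Tubb2a: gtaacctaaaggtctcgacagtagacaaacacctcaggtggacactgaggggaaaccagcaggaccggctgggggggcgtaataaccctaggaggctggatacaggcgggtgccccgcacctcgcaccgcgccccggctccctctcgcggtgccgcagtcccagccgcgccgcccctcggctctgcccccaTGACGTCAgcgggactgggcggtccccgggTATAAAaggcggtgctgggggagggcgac
Capitals mark matches to TATAAA, the TATA box, and to TGACGTCA, the palindromic cyclic AMP response element, which begin 29 and 59 bases before the start. Both strands were searched, and these 2 motifs were chosen after the window was read. They occur in 12.4% and 1.55% of 32851 promoter windows of the same length. The window holds neither CCAAT nor TTTGAA, letters often discussed for cell-cycle promoters, which occur in 33.8% and 15.99% of windows. Of the tubulin genes described next, Tubb2a among them, 6 had a promoter window. TATAAA and TGACGTCA were each found in 1 of the 6, Tubb2a itself, while CCAAT was found in 3 and TTTGAA in 1.

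The tubulin family was singled out after its values were seen, so no count of it supports the call. Of 9 tubulin genes whose mean log2 CPM reached 3, Tubb2a among them, 9 had a positive fold change and 7 an unadjusted p below 0.05, against 5.34% of all genes tested, with a median log2 of 0.40 (0.19 to 0.48). Tubb5, the most abundant beta-tubulin here, had a median of 1379 CPM in small and 1822 CPM in large sums, ranges of 948 to 1667 and 1381 to 2065 that overlapped, and a log2 fold change of 0.42 ± 0.07 in 8 of 8 pairs (adjusted p = 0.135 by edgeR, 2.38e-06 by DESeq2). The alpha-tubulin Tuba1c stood at 0.45 ± 0.09 in 8 of 8 pairs (adjusted p = 0.204 by edgeR, 0.0001 by DESeq2), and Tuba1b at 0.48 ± 0.13 in 7 of 8 (0.288 and 0.146). Tubg1, the gamma-tubulin of microtubule nucleation, was lowest of the 9 at 0.19 ± 0.08 (adjusted p = 0.468 by edgeR). Of 3 further tubulin entries that were tested at lower levels, Tubb4a stood at -0.67 ± 0.34 and was lower in 7 of 8 pairs (adjusted p = 0.562 by edgeR), and the pseudogenes Tubb4b-ps1 and Tubb4b-ps2 stood at 0.25 ± 0.26 and -0.21 ± 0.30.

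The values of cell-cycle genes differed widely between pairs. Of 54 genes of the G2/M list, which mark cells preparing for or in mitosis, 52 had a positive fold change and 12 an unadjusted p below 0.05 and higher, against 5.34% of all genes, and 0 were called by edgeR and 2 by DESeq2. The list's median log2 was 0.51, but over the pairs it ran from -1.28 to 2.32. It was -1.18 and -1.28 in the dimmest Venus gate of plate 1 and plate 2, 2.32 and 1.72 in the second gate, 0.58 and -0.75 in the third, and 1.88 and 1.99 in the brightest, so it was above 0 in 5 of 8 pairs; this difference between gates was not tested for the list. Leaving out 1 pair gave list medians from 0.29, without the brightest gate of plate 2, to 0.90, without the third gate of plate 2. They were 0.30 to 0.32 without the second gate of plate 1, the second gate of plate 2 or the brightest gate of plate 1, and 0.87 and 0.86 without the dimmest gate of plate 1 or of plate 2. Plate 1 alone gave 0.89 and plate 2 alone 0.24. The median share of a cell's counts in the list was higher in large cells in 6 of 8 pairs, by 0.012 percentage points on average (adjusted p = 0.221, exact sign-flip permutation test). In the dimmest gate this share differed by 0.0041 percentage points on plate 1 and by -4.8e-07 on plate 2, unlike the negative list medians of the summed counts there.

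The 3 genes with the lowest p of this list come next. They were picked by that p, which favours 1 sign across pairs, so their number of higher pairs is no separate support. Aurkb, the Aurora B kinase of chromosome segregation, had 1.54 to 14.9 CPM in small sums, with a median of 3.23, and 2.03 to 55.8 CPM in large sums, with a median of 30.5. The ranges overlapped, and 7 of 8 pairs were higher. Its log2 fold change was 2.39 ± 0.50 (adjusted p = 0.210 by edgeR, 0.00238 by DESeq2). Cdk1, the kinase that drives entry into mitosis, stood at 1.38 ± 0.34 (adjusted p = 0.266 by edgeR, 0.0427 by DESeq2) and Top2a, the topoisomerase that untangles replicated DNA, at 1.79 ± 0.52 (0.2997 and 0.0623), each higher in 7 of 8 pairs.

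Most cells had at least 1 count of Cdk1, 95.7% of large and 89.8% of small cells, and fewer had a count of Aurkb, 29.8% and 26.3%. With more than 0.3% of a cell's counts in the G2/M list as a mark, a cut set after the values were seen, 37 of 255 large cells (14.5%, exact binomial 95% interval 10.4 to 19.4%) and 20 of 255 small cells (7.84%, 4.86 to 11.9%) passed it. In the middle tertile 21 of 257 did (8.17%). Between 0.2% and 0.4% lay 16 large and 10 small cells. From the dimmest to the brightest gate, with both plates together, the number was 4, 10, 4 and 19 in large cells and 7, 3, 7 and 3 in small cells. In the dimmest gate these were 1 large and 3 small cells on plate 1, and 3 large and 4 small cells on plate 2. Over the 8 pairs the number ran from 1 to 10 in large and from 1 to 4 in small cells. The intervals pool cells that share plates and gates as if independent. They cover counting error only and are no test of large against small cells. No molecular identifiers are given in the sources used here, so PCR copies may be counted.

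S phase genes copy DNA and supply its precursors. Of 43 genes, 41 were positive and 11 had an unadjusted p below 0.05 and higher, against 5.34% of all genes; 0 were called by edgeR and 1 by DESeq2. The median log2 was 0.45, from -0.56 to 1.87 over the pairs, and 0.26 without the brightest gate of plate 1. The median share of a cell's counts in the list was lower in large cells in 6 of 8 pairs, while the mean of large minus small was 0.00080 percentage points (adjusted p = 0.828, exact sign-flip permutation test). Dscc1, a loader of the replication clamp, had medians of 0.48 CPM in small and 3.18 CPM in large sums, was higher in 6 of 8 pairs and was that 1 gene (adjusted p = 0.0210 by DESeq2, 0.371 by edgeR). Of the G1 cyclins and their inhibitors, 2 of 19 had an unadjusted p below 0.05, 10.5% against 10% of all genes. Both were higher: Rbl1, a member of the retinoblastoma family (log2 0.75 ± 0.19, adjusted p = 0.266), and Ccnd1, cyclin D1 (0.28 ± 0.09, adjusted p = 0.331, both edgeR). H2afx, a histone variant that marks DNA breaks, stood at 0.46 ± 0.12 (adjusted p = 0.274 by edgeR, 0.00848 by DESeq2) among 12 histone genes whose list median was 0.11.

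**Figure D3:**
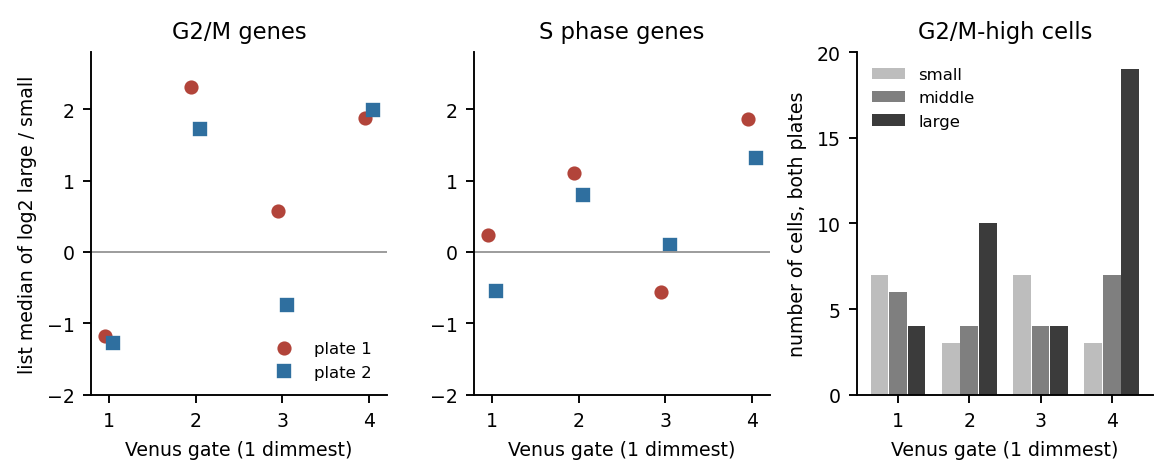
Left and centre, the median log2 ratio of large over small cells for the G2/M and S phase lists in each Venus gate (1 dimmest, 4 brightest), red circles for plate 1 and blue squares for plate 2. Right, the number of cells on both plates with more than 0.3% of counts in the G2/M list, by tertile of FSC-A. The G2/M medians lie near -1.2 in the dimmest gate and near 2 in the second and brightest gates, and 19 of the large cells' 37 fall in the brightest gate.

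To describe cells with few cell-cycle transcripts, the cells of each pair were cut at the median of their cell-cycle share, and only those below it were ranked anew. The list medians there, 0.01 over 35 of the 54 G2/M genes and -0.02 over 35 of the 43 S phase genes, follow from that choice, which used the same lists. In these cells, 15 or 16 a side in each pair, edgeR called 0 of 12397 genes, and 772 (6.23%) had an unadjusted p below 0.05. Over the same 9 tubulin genes the median log2 was 0.16 here and 0.40 in all cells. An unadjusted p below 0.05 was found for 3, Tubb5 (0.16), Tuba1b (0.17) and Tuba1c (0.22). Tubb2b went the other way, from 0.21 in all cells to 0.34 here, and Tubb6 and Tubg1 fell to -0.08 and -0.06. Tubb4b, 1 of the 9, is itself in the G2/M list that set the cut. Its value was 0.40 in all cells and 0.09 here, and the part of that choice in the change was not tested. Tubb2a stood at 0.18 (unadjusted p = 0.0900). Of the 111 genes that DESeq2 called higher in all cells, 102 were tested in these cells and 98 kept their sign. All 41 of the 42 lower ones that were tested there kept theirs. The sets share cells, so this repeats the direction and is not independent of it.

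Some genes outside the cell cycle had values of similar or larger size in the cells with a low cell-cycle share. The higher DESeq2 calls as a set had a median log2 of 0.28 in all cells and 0.19 in those cells. The genes named in the next lines were picked after their values were seen, from the 153 DESeq2 calls, and do not stand for that set. Prss23, a secreted serine protease, had 171 to 284 CPM in small sums, with a median of 243, and 249 to 328 CPM in large sums, with a median of 283. The ranges overlapped a little, and 8 of 8 pairs were higher, with a log2 fold change of 0.29 ± 0.05 (adjusted p = 0.135 by edgeR, 7.08e-06 by DESeq2) against 0.31 in the low cell-cycle cells. Crispld2, a secreted protein of the CAP family, had medians of 6.745 CPM in small and 10.2 CPM in large sums, and stood at 0.70 ± 0.11 in 8 of 8 pairs (adjusted p = 0.135 by edgeR, 4.16e-05 by DESeq2) against 0.67 in those cells. Igfbp7, a secreted protein that binds insulin-like growth factors, stood at 0.23 ± 0.04 in 8 of 8 pairs (adjusted p = 0.135 by edgeR, 0.000739 by DESeq2) against 0.39.

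Lower in large cells by DESeq2 were 42 genes, and the choice of names again followed the values. Osr1, a zinc finger transcription factor of mesenchymal progenitors, had 76.3 to 108 CPM in small sums, with a median of 90.2, and 49.3 to 85.4 CPM in large sums, with a median of 70.2. The ranges overlapped, and 8 of 8 pairs were lower. Its log2 fold change was -0.39 ± 0.07 (adjusted p = 0.135 by edgeR, 0.0001 by DESeq2), and -0.48 in the low cell-cycle cells. Tle2, a Groucho family corepressor, stood at -0.41 ± 0.07 in 8 of 8 pairs (0.135 and 0.000521). Ncor1, the nuclear receptor corepressor through which Nr1d1 represses its targets, had medians of 185 CPM in small and 157 CPM in large sums, a log2 fold change of -0.18 ± 0.04 in 8 of 8 pairs, and adjusted p values of 0.210 by edgeR and 0.0137 by DESeq2. Pdcd4, an inhibitor of translation, stood at -0.30 ± 0.06 in 8 of 8 pairs (0.194 and 0.000923). Gstm1, a glutathione transferase, stood at -0.30 ± 0.07 in 7 of 8 pairs (0.253 and 0.00301), with -0.49 on plate 1 alone and -0.12 on plate 2 alone.

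**Figure D4:**
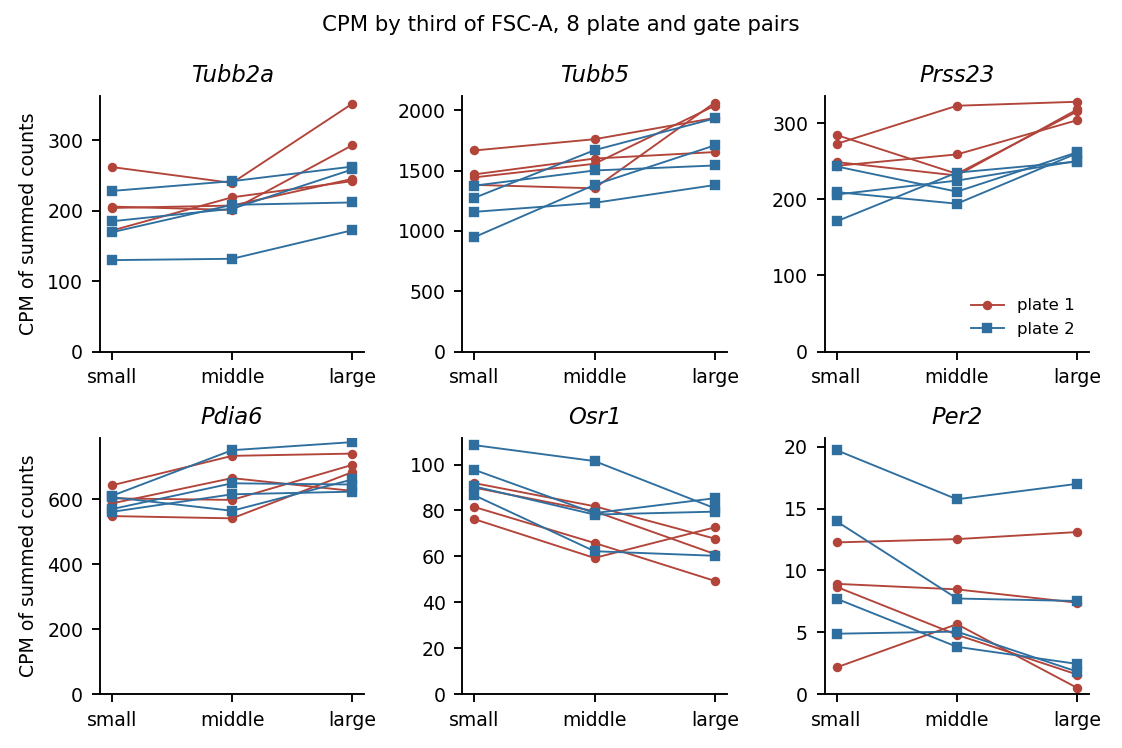
CPM of summed counts in the small, middle and large tertile of FSC-A for 6 genes. Each line is 1 of 8 plate and gate pairs, red circles for plate 1 and blue squares for plate 2, and all axes start at 0. Tubb2a, Tubb5, Prss23 and Pdia6 are higher and Osr1 is lower at the large end in 8 of 8 pairs, and Per2 is lower in 7 of 8.

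Of the 22 lists, the secretory pathway list had the highest share of genes at an unadjusted p below 0.05, 36.4%. Of 22 genes of the ER stress and secretory list, 18 were positive and 8 had an unadjusted p below 0.05 and higher, against 5.34% of all genes; 0 were called by edgeR and 3 by DESeq2, and the list's median log2 was 0.10 against -0.00086 over all genes. Its pair medians ran from -0.06 to 0.23. Pdia6, a disulfide isomerase of the endoplasmic reticulum, had 548 to 642 CPM in small sums, with a median of 594, and 623 to 775 CPM in large sums, with a median of 672. The ranges barely overlapped, and 8 of 8 pairs were higher, with a log2 fold change of 0.21 ± 0.03 (adjusted p = 0.135 by edgeR, 0.000146 by DESeq2). Calr, the calcium-binding chaperone calreticulin, stood at 0.18 ± 0.04 in 8 of 8 pairs (0.220 and 0.00846), and Asns, asparagine synthetase, a target of the amino acid response, at 0.26 ± 0.08 in 7 of 8 (0.306 and 0.0303). In the low cell-cycle cells the list's median was 0.12, with 6 of 22 genes at an unadjusted p below 0.05, against 6.23% of all genes tested there.

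Of 35 collagen and matrix genes, 26 were positive and 7 had an unadjusted p below 0.05 and higher, against 5.34% of all genes; 0 were called by edgeR and 2 by DESeq2. The median log2 was 0.06, from -0.16 to 0.41 over the pairs, of which 4 were above and 4 below 0. In the low cell-cycle cells the list's median was 0.14, with 11 of 35 genes at an unadjusted p below 0.05, against 6.23% of all genes tested there. Sparc, a collagen-binding matrix protein, had 1705 to 2719 CPM in small sums, with a median of 2385, and 2206 to 3118 CPM in large sums, with a median of 2586. The ranges overlapped, and 7 of 8 pairs were higher (log2 0.20 ± 0.05, adjusted p = 0.253 by edgeR, 0.00869 by DESeq2). Fbln5, an elastic fibre protein, stood at 0.20 ± 0.05 (0.261 and 0.0141), and Col8a1, a short-chain collagen, at 0.44 ± 0.12 (0.274 and 0.0930). Collagen-modifying enzymes outside the list, named after their values were seen, were called by DESeq2: Fkbp10, a collagen chaperone, at 0.19 ± 0.03 (adjusted p = 0.0006), Plod1, a lysyl hydroxylase, at 0.18 ± 0.04 (0.0118), and P4ha1, a prolyl hydroxylase, at 0.21 ± 0.06 (0.0374), each in 8 of 8 pairs.

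Ribosome and energy genes included no edgeR call. Of 53 cytosolic ribosomal protein genes, 40 were positive, against 6905 of all 13884 genes, but the median log2 was 0.02. At an unadjusted p below 0.05 stood 4, 7.55% of the list against 10% of all genes, and 0 were called by either tool. The 25 ribosome biogenesis and Myc target genes had a median of 0.06, with 21 positive and 4 at an unadjusted p below 0.05 (16%). Among these 4 was Bop1, a factor for the large ribosomal subunit (0.17 ± 0.06, adjusted p = 0.345 by edgeR). Nuclear-encoded respiratory chain genes had a median of -0.01 over 38 genes, with 1 (2.63%) at an unadjusted p below 0.05, Cox6c, a subunit of cytochrome oxidase (-0.07 ± 0.03, adjusted p = 0.472). The 13 mitochondrially encoded genes had a median of -0.01. Of 18 glycolysis genes, 4 were higher and 2 lower at an unadjusted p below 0.05, 33.3% of the list against 10% of all genes, with a list median of 0.03. Called by DESeq2 was the glucose transporter Slc2a1 (0.24 ± 0.07, adjusted p = 0.274 by edgeR, 0.0401 by DESeq2).

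Lists tied to volume, adhesion and stress had between 4.35% and 18.2% of their genes at an unadjusted p below 0.05, against 10% of all genes. The 20 genes of cell volume and ion transport had a median log2 of 0.08, with 2 higher and 1 lower at an unadjusted p below 0.05. Among them were the sodium pump subunit Atp1b3 (0.12 ± 0.03, adjusted p = 0.294) and the taurine transporter Slc6a6 (-0.17 ± 0.07, adjusted p = 0.466), both by edgeR. Actin and SRF target genes (23) had a median of 0.05 with 2 higher, YAP/TAZ targets (18) 0.03 with 2 higher, p53 targets (23) 0.08 with 3 higher and 1 lower, and immediate early genes (22) 0.06 with 4 higher. Cholesterol genes (23) and lysosome genes (22) had medians of 0.01 and -0.0033. Interferon-stimulated genes (14) had a median of -0.09, with 1 lower, Irf7, a regulator of that response (-0.43 ± 0.13, adjusted p = 0.329 by edgeR). No member of these 8 lists was called by edgeR, and 1, the lysosomal protease Ctsl (0.13 ± 0.03), was called by DESeq2 (adjusted p = 0.0407).

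**Figure D5:**
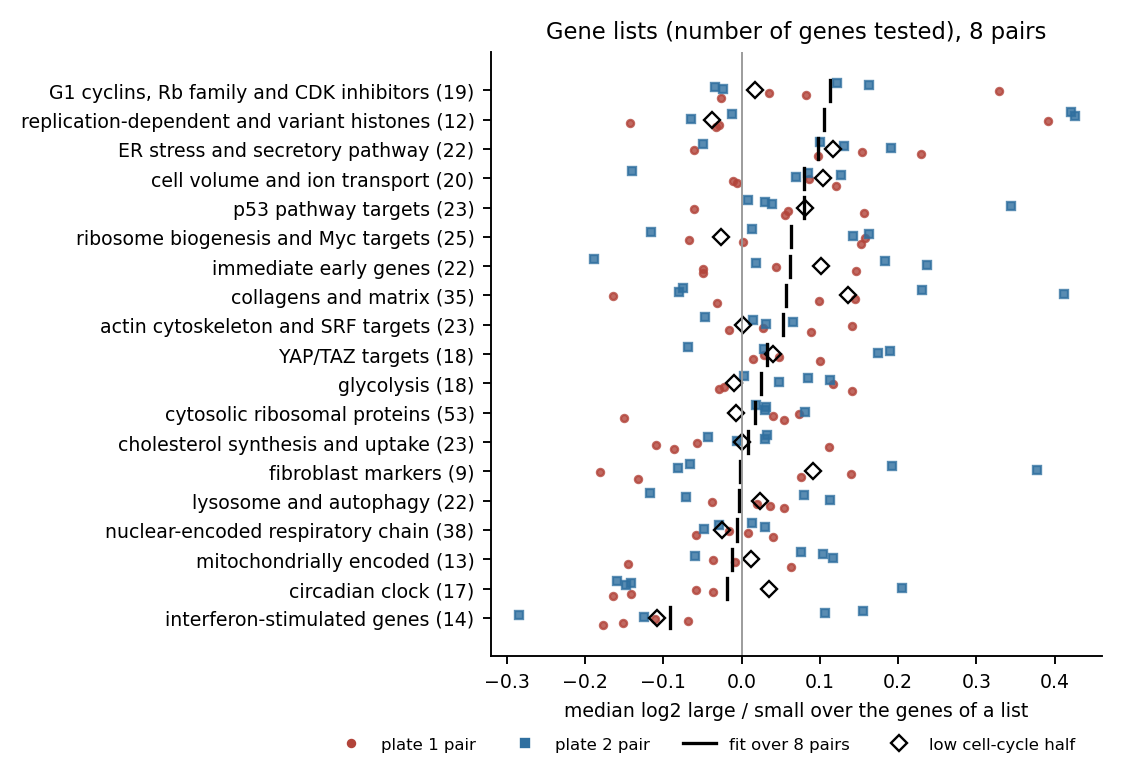
Median log2 ratio of large over small cells over the tested genes of 19 lists, with the number of genes in brackets. Points are the 8 plate and gate pairs (red circles plate 1, blue squares plate 2), black bars the fit over all 8 and open diamonds the cells with a low cell-cycle share. The fitted medians of the 19 lists lie between -0.09 and 0.11, and in most lists the pairs lie on both sides of 0.

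Circadian clock genes were of interest because the gates follow a clock reporter. Of 17 tested, 6 were positive, against 6905 of all 13884 genes, and the median log2 was -0.02. At an unadjusted p below 0.05 stood 2, both lower, 11.8% of the list against 10% of all genes. By edgeR 0 were called and by DESeq2 1, against 1.1% of all genes by DESeq2. Per2, a repressor of the clock's CLOCK-BMAL1 activator, had 2.16 to 19.7 CPM in small sums, with a median of 8.79, and 0.496 to 17.0 CPM in large sums, with a median of 4.91. The ranges overlapped and 7 of 8 pairs were lower, with a log2 fold change of -1.03 ± 0.28 (adjusted p = 0.275 by edgeR, 0.00461 by DESeq2). Plate 1 alone gave -1.04 and plate 2 alone -1.02. In the low cell-cycle cells its value was -0.60. The fitted change of this log2 difference per Venus gate step, from dim to bright, was 0.68 ± 0.15, which did not pass adjustment over all genes (adjusted p = 0.580 by edgeR). Dbp, an activator whose transcript follows the clock, stood at -0.30 ± 0.09 in 7 of 8 pairs (adjusted p = 0.302 by edgeR, 0.0623 by DESeq2), and Arntl, which encodes BMAL1, at 0.13 ± 0.12 (adjusted p = 0.759 by edgeR).

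Whether the difference between large and small cells changed across the study's own axes was tested for every gene. The interaction of size with plate called 0 genes by edgeR, with 420 (3.03%) at an unadjusted p below 0.05 and a smallest adjusted p = 0.348. The interaction of size with Venus gate called 0, with 1016 (7.32%) at an unadjusted p below 0.05 and a smallest adjusted p = 0.580. For Tubb2a the change per gate step was 0.01 ± 0.04 and its adjusted p = 0.965, and for Tubb5 it was 0.12 ± 0.06 (adjusted p = 0.687). DESeq2 and limma were not run for the interactions.

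Across single cells the correlation with forward scatter was computed for selected genes only, and its medians lay between -0.20 and 0.21. The median Spearman correlation of CPM with FSC-A over the 8 pairs was 0.19 for Tubb2a (0.08 to 0.29), 0.17 for Tubb5, 0.21 for Tuba1b, -0.20 for Osr1 and -0.11 for Per2. For comparison it was 0.43 for SSC (Violet)-A, 0.19 for the R4 detector, 0.29 for genes detected and 0.07 for counts per cell. Each is over 95 or 96 cells of 1 gate and plate and is given as a description. Depth varied between single cells, from 2100 to 1618022 counts over all kept cells.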

How the data were processed

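Gene counts of 768 cells on 2 plates came as whole-number raw counts per gene and cell, deposited by the authors; STAR 2.7.11a, SAMtools, bedtools and HTSeq and the build GRCm39 are named in the submitters' processing notes. Strand and molecular identifiers are not given in the sources used here. Scatter and fluorescence came as recorded signal and intensity values and as image scores in the deposited sorting record, in arbitrary units. The members and gene lists were chosen with earlier results of these data known.

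Cells with at least 1000 genes were ranked by FSC-A within plate and gate, and tertiles were summed (16 sums, 8 pairs). Fold changes came from the quasi-likelihood F-test of edgeR 4.0.16 under R 4.3.3 (filterByExpr by side, TMM, pair as block, 7 residual degrees of freedom, Benjamini-Hochberg adjustment over 13884 genes, threshold 0.05), with SE from the F statistic. CPM values used TMM factors over the 24 sums of the 3 tertiles. DESeq2 1.42.0 and limma 3.58.1 were alternatives. Cell medians were compared with an exact two-sided sign-flip test over 8 pairs. Scripts were tested on simulated data. The 22 lists held 607 genes, of which 567 matched; 24902 of 33757 features had a symbol, and features without one held 1.07% of counts. Named genes were the 10 largest called each way (mean log2 CPM at least 3, 1 sign in all pairs), the 3 lowest p of each list, Nr1d1, Arntl and both reporters; others are marked as chosen later, and some genes are not reported here. No doublet caller was run on these singly sorted wells, and 0 cells had identical counts. Promoter sequence came from RefSeq by symbol.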

Additional observations from a re-analysis of the deposited data

Results flagged for a closer look

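The 8 within-pair differences of 32 measures and lists were examined for 1 pair far from the other 7, which chance alone finds in about 1 in 20 sets; 4 sets had one. For SSC (Violet)-A the difference in the brightest gate of plate 1 was 0.50 on the log2 scale, and for detector ImgB1 that in the dimmest gate of plate 2 was 0.39. For cytosolic ribosomal proteins the list median in the second gate of plate 1 was -0.15, and for the circadian clock list that in the dimmest gate of plate 2 was 0.21.

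In 5 of the 32 sets the difference had one sign in the dimmest Venus gate of both plates and the other sign in the brightest gate of both. This rule uses only the signs of few differences, so chance alone is likely to meet it in several of 32 sets. No chance rate was computed for it. These contrasts were not tested as such. Brightest minus dimmest gate, the G2/M list median differed by 3.17 on the log2 scale, histones by 0.45, G1 cyclins and CDK inhibitors by 0.25, lysosome and autophagy genes by -0.16, and the median share of counts in S phase genes by 0.0111 percentage points. In the dimmest gate of both plates, 4 large and 7 small cells had more than 0.3% of counts in the G2/M list.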

How the results depend on the processing

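The single edgeR call rests on the settings. The count of called genes was 0 with cuts at the median, ranking within well columns, thinned cells, limma on mean CPM, the low cell-cycle cells, or ranking by FSC-H, image size or LightLoss (Imaging)-A, with 772 to 1379 genes at an unadjusted p below 0.05 in these 8 settings. It was 18 without the expression filter, 82 with 4 sums and the plate as replicate block (1 residual degree of freedom), and 153 with DESeq2. Leaving out 1 plate or 1 pair gave 0 to 1. Without the replicate block 1 gene was called, Mybl1 and not Tubb2a, whose adjusted p was then 0.694. The log2 value of Tubb2a was positive in all 26 alternatives (0.12 to 0.65). Across genes, the fold changes from ranking by image size had a Pearson correlation of 0.358 with the main ones. That correlation was 0.795 for FSC-H and 0.859 for LightLoss (Imaging)-A.

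Of 572 list medians under alternatives, 3 moved by more than the SD of the 8 pair medians: ranked by image size, actin and SRF targets to -0.020 and fibroblast markers to 0.19, and with sixths the circadian list to -0.18. On the log2 scale detector ImgB1 lost its call with cuts at the median (0.094), sixths (0.13), well columns (0.13) and means (0.10), and detector UV5 with sixths (0.31) and means (0.19). With 1 plate left out no measure can pass, since the exact sign-flip permutation test over 4 pairs reaches p = 0.125 at best; the differences were 0.31 to 0.33 for SSC (Violet)-A, 0.10 to 0.18 for detector ImgB1, 0.27 to 0.40 for detector UV5 and 0.025 to 0.036 for genes detected. Sums of 31 or 32 cells limit what is detectable for genes carried by few cells. The causes of these changes were not tested.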

Other observations

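Genes of amino acid and one-carbon metabolism and of translation stood among those that DESeq2 called higher in large cells; they belong to no list used here and were picked after their values were seen, so no theme was tested. Shmt2, the mitochondrial serine hydroxymethyltransferase, had medians of 86.8 CPM in small and 109 CPM in large sums (log2 0.40 ± 0.08, adjusted p = 0.000565 by DESeq2, 0.210 by edgeR). Pycr1, which makes proline, stood at 0.46 ± 0.11 (0.00273 and 0.249), Aldh1l2, a mitochondrial folate enzyme, at 0.29 ± 0.07 (0.0135 and 0.261), and Psat1, of serine synthesis, at 0.23 ± 0.06 (0.0145 and 0.274). The aminoacyl-tRNA synthetases Vars, Lars, Gars and Eprs lay between 0.23 and 0.25 (DESeq2 adjusted p = 0.00461 for Vars, 0.0445 for Lars, 0.0441 for Gars and 0.0457 for Eprs). Atf5, a transcription factor of the amino acid and mitochondrial stress responses, stood at 0.42 ± 0.11 in 8 of 8 pairs (0.00478 and 0.266). In the low cell-cycle cells the values of Shmt2 and Psat1 were 0.11 and 0.01, while those of Pycr1 and Atf5 were 0.55 and 0.48.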
